A study of Mus musculus with 13 samples.

Results

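The genes followed here, 10 of the actin cytoskeleton and of its transcriptional read-outs, were measured in CGR8 mouse ES cells exposed to the G-quadruplex (G4) ligand PhenDC3. They are Actb, Actg1, Tagln, Tagln2, Cnn2, Tpm1, Myl9, Ctgf, Cyr61 and Ankrd1, chosen by symbol from the table of raw RNA-seq counts, and all 10 were found among its 24079 genes. The choice was made with the values of these genes in the same libraries known, so their differences between conditions are given below as a description, without a test. CGR8 is a feeder-free ES cell line, grown here asynchronously on gelatin with serum and LIF. Control cells received 0.5% DMSO for 48 h and PhenDC3 cells received 10 μM of the ligand, with the same amount of DMSO, for the same time. PhenDC3 is a bisquinolinium compound that binds and stabilises G4, stacked structures that form in guanine-rich nucleic acid. RNA-seq was available for 3 control and 3 PhenDC3 samples, and short nascent strands (SNS-seq), which mark sites where replication started, for 3 control and 2 PhenDC3 samples. A single cell line was used.

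Actin exists in cells as monomers and as filaments, and the balance between them is read by the nucleus. Monomeric actin holds the MRTF cofactors (encoded by Mkl1 and Mkl2) away from serum response factor (SRF); when filaments form, MRTF is freed and SRF, bound to CArG boxes, drives actin and actin-binding genes. SRF also works with ternary complex factors on immediate-early genes such as Egr1. Tension on filaments further controls YAP and TAZ, cofactors restrained by the Hippo kinases, which act through the TEAD proteins on genes such as Ctgf, Cyr61 and Ankrd1. In the group followed here, Actb and Actg1 encode the cytoplasmic β- and γ-actins. Tagln (SM22α), Tagln2 and Cnn2 encode calponin-family actin-binding proteins, Tpm1 encodes a tropomyosin that lies along the filament, and Myl9 encodes a regulatory light chain of myosin II. Ctgf and Cyr61 (also called Ccn2 and Ccn1) encode secreted matricellular proteins and Ankrd1 an ankyrin-repeat protein.

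The promoters show which of these genes carry the letters of either pathway next to their start. RefSeq promoter entries (GRCm38.p6, 250 bases before to 50 bases after the transcription start site, TSS) matched 7 of the 10 genes; Actb, Tagln and Ctgf had no entry. Both strands were searched for the CArG box, for its looser frame CCNNNNNNGG, for GGAATG, the core bound by TEAD proteins, and for GGGCGG, the core bound by Sp1. A CArG box was found in Actg1, Cnn2 and Myl9, against 1.63% of 32851 promoters. GGAATG was found in Cyr61, Ankrd1, Tagln2 and Tpm1, against 14.7% of promoters, and none of the 7 held both. Sequences before the start are shown 5′ to 3′ on the strand of the gene, because they carry these motifs, with the CArG box in capitals in the first 3 and GGAATG, or its reverse complement CATTCC, in capitals in the others. Actg1, Cnn2, Cyr61 and Ankrd1 are given with all 250 bases before the TSS, and Myl9 and Tagln2 with a shorter stretch around the motif. Actg1, Cyr61 and Ankrd1 lie on the minus strand and Cnn2, Myl9 and Tagln2 on the plus strand.
Actg1 (chr11:120348496-120348745): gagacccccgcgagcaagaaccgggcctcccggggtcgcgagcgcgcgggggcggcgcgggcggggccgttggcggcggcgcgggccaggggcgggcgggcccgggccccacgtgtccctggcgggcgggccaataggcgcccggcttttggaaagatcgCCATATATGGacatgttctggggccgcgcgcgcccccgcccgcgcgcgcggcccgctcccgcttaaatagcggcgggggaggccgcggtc
Cnn2 (chr10:79988350-79988599): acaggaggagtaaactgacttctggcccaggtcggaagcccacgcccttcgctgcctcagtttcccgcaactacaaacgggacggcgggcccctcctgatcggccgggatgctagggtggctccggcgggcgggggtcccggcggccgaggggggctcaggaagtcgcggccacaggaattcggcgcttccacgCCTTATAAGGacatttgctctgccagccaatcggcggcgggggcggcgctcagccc
Myl9 (chr2:156775283-156775332): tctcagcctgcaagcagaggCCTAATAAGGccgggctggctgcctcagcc
Cyr61 (chr3:145649986-145650235): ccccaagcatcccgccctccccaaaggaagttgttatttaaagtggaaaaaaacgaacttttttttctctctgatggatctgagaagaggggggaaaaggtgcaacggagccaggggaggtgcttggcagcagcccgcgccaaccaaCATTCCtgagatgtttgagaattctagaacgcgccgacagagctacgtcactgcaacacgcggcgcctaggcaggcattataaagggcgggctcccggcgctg
Ankrd1 (chr19:36119845-36120094): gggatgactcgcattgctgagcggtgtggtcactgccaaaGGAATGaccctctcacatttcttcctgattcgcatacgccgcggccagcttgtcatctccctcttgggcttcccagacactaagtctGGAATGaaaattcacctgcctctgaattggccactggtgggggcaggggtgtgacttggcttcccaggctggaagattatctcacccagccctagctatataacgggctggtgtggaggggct
Tagln2 (chr1:172500108-172500191): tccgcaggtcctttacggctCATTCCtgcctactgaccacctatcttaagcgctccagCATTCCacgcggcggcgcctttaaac

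With the TSS counted as 0, the CArG box began at −90 in Actg1 (CCATATATGG), at −56 in Cnn2 (CCTTATAAGG) and at −161 in Myl9 (CCTAATAAGG). The TEAD core lay at −103 to −98 in Cyr61, at −210 and −123 in Ankrd1, at −118 and −80 in Tagln2 and at −56 to −51 in Tpm1. GGGCGG was present in 6 of the 7 promoters, all but Ankrd1, against 35.7% of all promoters, and the looser frame CCNNNNNNGG, which every CArG box also fits, in 7 of 7 against 73.3%. Since the ligand binds G4, the same windows were scored with G4Hunter, which rates the G-richness and G-skew of 25-base stretches. A score of at least 2 was reached in Tagln2 (2.04) and Myl9 (2.84), against 18.7% of all promoters, and the highest scores of the other 5 lay between 1.56 and 1.96. At a threshold of 1.5 all 7 were positive, against 41.6% of promoters. The 7 windows held from 54.7% (Ankrd1) to 77.3% (Actg1) G and C, beside a median of 52.7% over all promoters. The shares of GGGCGG and of G4Hunter scores were not compared at matched G and C content. These are matches of letters and were not assayed as binding sites or structures.

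The RNA-seq libraries held between 22232014 and 29486502 counts, and levels are given as CPM (counts scaled to a common library size) after relative log expression normalization. The ES cell identity of both conditions was checked with a list of 10 markers, of which 4 rose and 3 fell in PhenDC3 (given below). Among all genes tested 18% rose and 18.7% fell. Both counts use an adjusted p of at most 0.05. Among the markers that fell, Pou5f1 was measured at 1403 to 1621 CPM in control and 1045 to 1131 CPM in PhenDC3 libraries. Its log2 fold change was −0.45 ± 0.11 (SE, adjusted p = 0.011, edgeR quasi-likelihood). That call was lost when scaling by library size alone (adjusted p = 0.084) and without PhenDC3 replicate 1 (adjusted p = 0.054). Ribosomal Rn45s took 2.55% to 5.7% of the control counts and 0.172% to 1.43% of the PhenDC3 counts. Scaling by library size alone moved the median log2 fold change of all genes from 0.01 to 0.16. Of the genes called, it moved the share called higher in PhenDC3 from 49% to 68%. The labels do not say whether samples came from separate cultures, so adjusted p-values measure only the spread between these samples.

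In control cells the 10 genes spanned more than 3 orders of magnitude per length of transcript. On the scale of CPM per kb of exon, Actb stood at 1537 ± 202 (SD, n = 3), Actg1 at 600 ± 96.9, Tagln2 at 117 ± 7.92 and Cnn2 at 35.8 ± 9.13. The actins and the calponin-family pair thus formed 4 separate levels with no overlap between neighbours. Tpm1 (19.7 ± 2.92), Ctgf (13.5 ± 3.85) and Cyr61 (11.3 ± 2.25) followed, and Ctgf overlapped both Tpm1 and Cyr61. Tagln (4.40 ± 2.59) and Myl9 (3.10 ± 0.841) overlapped each other, and Ankrd1 was lowest at 0.811 ± 0.388. In PhenDC3 cells the first 4 places were held by the same genes, with Actb at 934 ± 51.1 and Actg1 at 668 ± 2.81. Ctgf (35.2 ± 10.6) and Cyr61 (32.2 ± 5.09) stood above Tpm1 (23.1 ± 2.41), and Ctgf overlapped Cnn2 (36.8 ± 6.36). Ankrd1 (2.11 ± 1.34) and Myl9 (1.80 ± 0.684) overlapped at the lower end.

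**Figure D1:**
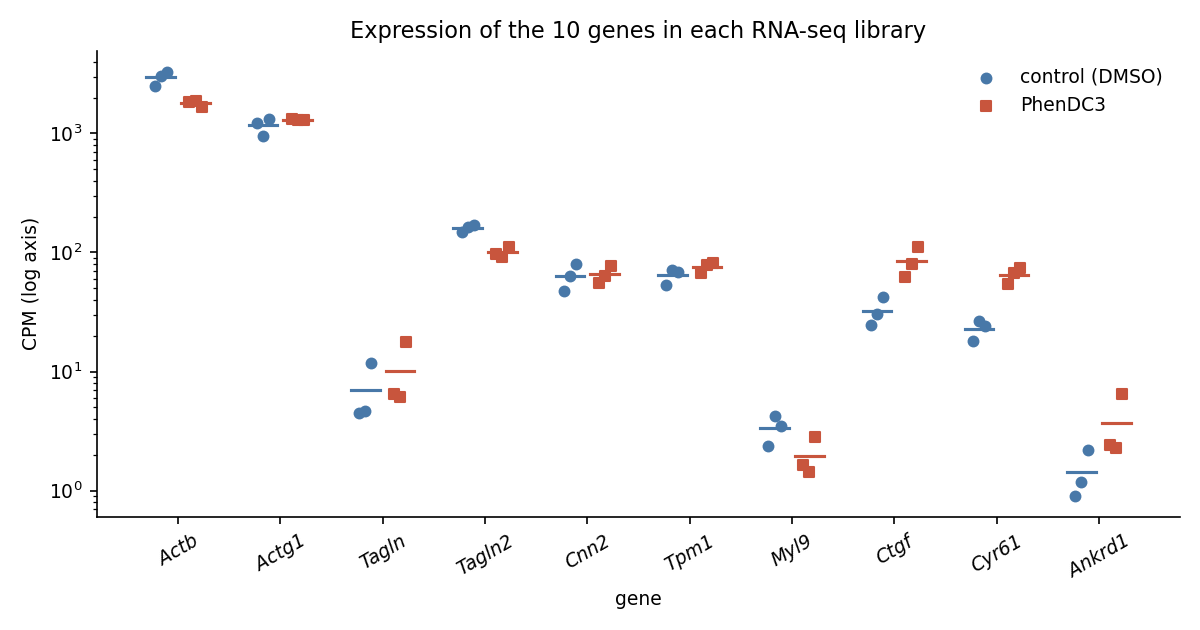
Level of each gene in each RNA-seq library, as CPM on a log axis. Points are libraries (3 control, 3 PhenDC3) and horizontal lines are group means; Actb and Tagln2 sit lower and Ctgf, Cyr61 and Ankrd1 higher in every PhenDC3 library than in any control library, and the other 5 genes overlap.

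All 10 genes passed the filter on low counts. For 5 of them the 2 conditions did not overlap, with 3 higher (Ctgf, Cyr61 and Ankrd1) and 2 lower (Actb and Tagln2) in PhenDC3. Over all 13972 genes tested, 50.6% did not overlap (25% higher and 25.6% lower), and nothing is read from the count of the chosen genes. The median log2 fold change of the 10 was 0.19, beside 0.01 for all genes, whose middle 50% lay between −0.35 and 0.40.

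**Figure D2:**
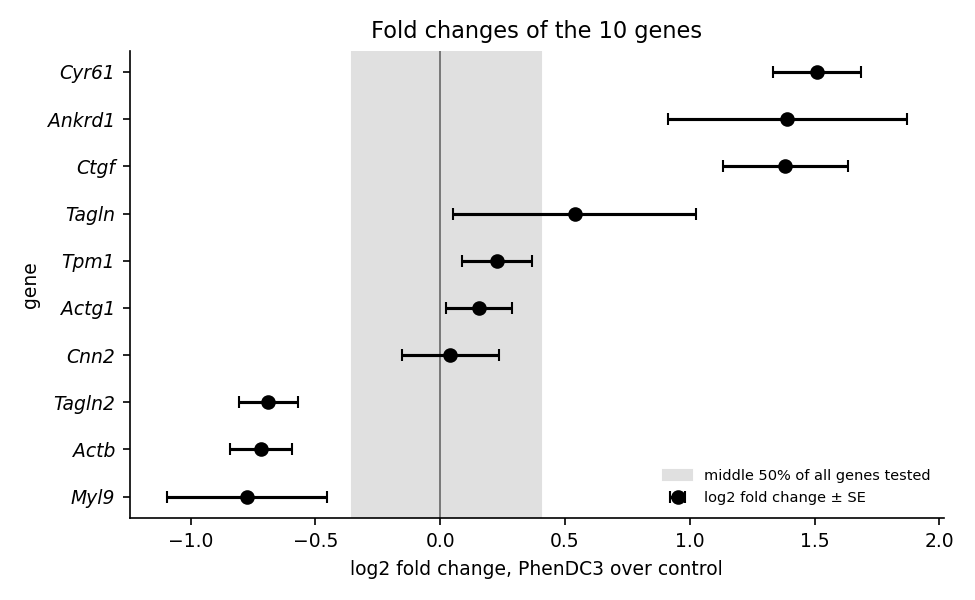
Log2 fold change of PhenDC3 over control for each gene (points) with its SE from the edgeR fit (bars), n = 3 against 3; the grey band holds the middle 50% of all genes tested (−0.35 to 0.40). Cyr61, Ankrd1, Ctgf and Tagln lie to the right of the band (the bar of Tagln reaches into it), and Tagln2, Actb and Myl9 to its left.

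The actins differed from each other. Actb measured 2525, 3046 and 3283 CPM in the control libraries and 1834, 1865 and 1682 CPM in the PhenDC3 libraries. Each PhenDC3 value lay below each control value, and the difference was 1.65-fold (log2 fold change −0.72 ± 0.12, SE). Actg1 measured 1234, 958 and 1321 CPM in control and 1310, 1303 and 1299 CPM in PhenDC3, so that the PhenDC3 values were nearly identical and lay inside the control range (log2 fold change 0.16 ± 0.13). The count ratio of Actb to Actg1, which does not depend on scaling, was 2.05, 3.18 and 2.49 in control and 1.40, 1.43 and 1.29 in PhenDC3. Its mean was 2.57 ± 0.570 (SD, n = 3) in control and 1.38 ± 0.0716 in PhenDC3, without overlap. Together the 2 actins took 4122 ± 435 CPM in control and 3098 ± 102 CPM in PhenDC3. Actb and Actg1 have near-identical coding sequences and Actb has processed pseudogenes, and how reads matching several copies were counted is not given in the sources used here.

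Actb is widely used as a reference gene, as is Gapdh, a glycolytic enzyme. Gapdh itself was lower in PhenDC3, with 1406, 1728 and 1214 CPM against 1006, 1122 and 915 CPM (log2 fold change −0.51 ± 0.15, adjusted p = 0.024, edgeR quasi-likelihood). That call was lost when scaling by library size alone (adjusted p = 0.11) and without control replicate 1, control replicate 2, PhenDC3 replicate 1 or PhenDC3 replicate 3 (adjusted p = 0.059 to 0.084). The count ratio of Actb to Gapdh was 1.80, 1.76 and 2.71 in control and 1.82, 1.66 and 1.84 in PhenDC3, and the conditions overlapped. Of 14 common reference genes 7 fell and 1 rose at an adjusted p of at most 0.05, beside 18.7% and 18% of all genes, with a median log2 fold change of −0.28. The largest falls were in Gusb, a lysosomal glucuronidase (−1.19 ± 0.14, adjusted p = 0.00046), Pgk1, a glycolytic kinase (−0.82 ± 0.13, adjusted p = 0.0014), and Hprt, of purine salvage (−0.61 ± 0.11, adjusted p = 0.0028). B2m, the light chain of MHC class I, rose (0.55 ± 0.14, adjusted p = 0.014), but was not past the threshold without replicate 3 of both conditions (adjusted p = 0.060). Scaling by library size alone left 3 of the 14 lower and 2 higher.

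**Figure D3:**
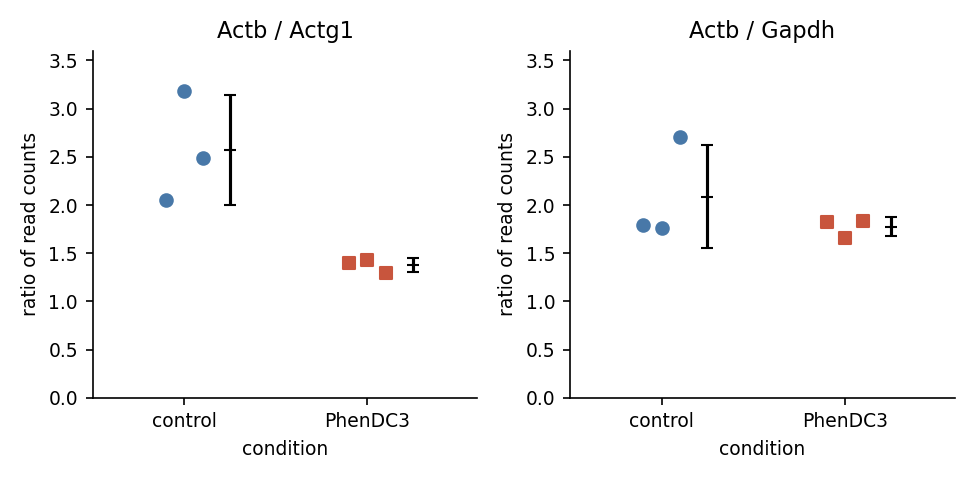
Ratio of Actb read counts to those of Actg1 (left) and Gapdh (right) in each RNA-seq library; points are libraries and bars show mean ± SD (n = 3). The ratio to Actg1 is 2.05 to 3.18 in control and 1.29 to 1.43 in PhenDC3, whereas the ratios to Gapdh overlap.

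Among the actin-binding genes, Tagln2 measured 149, 165 and 170 CPM in control and 96.8, 92.0 and 112 CPM in PhenDC3. All PhenDC3 libraries were lower, with a log2 fold change of −0.69 ± 0.12 (SE), close in size to that of Actb. Its relative Tagln, a marker of smooth muscle, measured 4.52, 4.70 and 11.7 CPM in control and 6.45, 6.15 and 17.7 CPM in PhenDC3. Replicate 3 was high in both conditions, and the log2 fold change of 0.54 ± 0.49 became −0.15 without PhenDC3 replicate 3 and 1.13 without control replicate 3. Without replicate 3 of both conditions it was 0.45. Between samples of the same number, whose pairing is not established, PhenDC3 was 1.43, 1.31 and 1.51 times control. Cnn2 overlapped fully (47.7, 63.5 and 80.2 CPM against 55.1, 64.0 and 77.6 CPM) with a log2 fold change of 0.04 ± 0.20, and its sign turned without control replicate 1 (−0.14) or without PhenDC3 replicate 3 (−0.10).

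Tpm1 measured 53.7, 71.1 and 69.2 CPM in control and 66.8, 78.6 and 81.7 CPM in PhenDC3. The ranges overlapped and the log2 fold change was 0.23 ± 0.14. Without control replicate 1 it was 0.10. Myl9 was scarce, with 66, 92 and 81 reads (2.39, 4.19 and 3.50 CPM) in control and 47, 34 and 77 reads (1.63, 1.42 and 2.80 CPM) in PhenDC3. PhenDC3 replicate 3 lay inside the control range, and the log2 fold change of −0.77 ± 0.32 became −1.13 without it. Among the promoters searched, those of Actg1, Cnn2 and Myl9 hold a CArG box, and the values of these 3 genes overlapped between conditions. Actb, Tagln and Ctgf had no promoter entry, so their promoters were not searched for the box. Any part of the CArG box in these values was not tested.

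The YAP targets of the group were higher in PhenDC3. Ctgf measured 24.5, 30.4 and 42.6 CPM in control and 61.6, 80.4 and 112 CPM in PhenDC3, 2.61 times as high (log2 fold change 1.38 ± 0.25). Cyr61 measured 17.9, 26.8 and 24.1 CPM in control and 54.0, 67.4 and 74.4 CPM in PhenDC3, 2.85 times as high (1.51 ± 0.18). The lowest PhenDC3 library of either gene exceeded the highest control library. Ankrd1 was counted 25, 26 and 51 times in control and 70, 55 and 178 times in PhenDC3. These counts are 0.905, 1.19 and 2.21 CPM against 2.43, 2.30 and 6.46 CPM, with replicate 3 high in both conditions as for Tagln. Its log2 fold change was 1.39 ± 0.48, and 0.73 without PhenDC3 replicate 3, while 1.84 without control replicate 3. Without replicate 3 of both conditions it was 1.18. Between samples of the same number PhenDC3 was 2.68, 1.94 and 2.93 times control. Within libraries Ctgf and Cyr61 kept a count ratio of 1.42 ± 0.322 (SD, n = 3) in control and 1.28 ± 0.197 in PhenDC3, with overlap.

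The values were also computed under 13 alternative fits of the same libraries. The log2 fold change of Actb lay between −0.83 and −0.57, that of Tagln2 between −0.77 and −0.54, that of Ctgf between 1.13 and 1.62 and that of Cyr61 between 1.35 and 1.66.

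Other genes of the pathways were taken from lists, and for these the adjusted p of edgeR's quasi-likelihood test over all genes is given, with 0.05 as the threshold, which 36.8% of all genes passed (18% higher and 18.7% lower). Of 16 further YAP targets tested, 9 rose and 4 fell, with a median log2 fold change of 0.66, beside a median of 0.01 over all genes. Myof, a ferlin of the plasma membrane, rose from 45.2 to 88.3 CPM in control to 228 to 323 CPM in PhenDC3 (log2 fold change 2.08 ± 0.24, adjusted p = 0.00033). Crim1, a transmembrane regulator of BMP signalling (2.07 ± 0.34, adjusted p = 0.0019), Ptpn14, a phosphatase that restrains YAP (1.98 ± 0.15, adjusted p = 7.6e-05), and F3, tissue factor (1.61 ± 0.22, adjusted p = 0.0008), rose as well. Fjx1, a Golgi kinase related to four-jointed (−1.83 ± 0.24, adjusted p = 0.00069), Nt5e, an ecto-nucleotidase (−1.73 ± 0.31, adjusted p = 0.0028), and Igfbp3, a binding protein of insulin-like growth factors (−0.85 ± 0.13, adjusted p = 0.0014), fell. Gadd45a, a stress gene, fell too (−0.60 ± 0.18, adjusted p = 0.027), a call lost without control replicate 1, control replicate 2, PhenDC3 replicate 1 or PhenDC3 replicate 3 (adjusted p = 0.066 to 0.10).

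**Figure D4:**
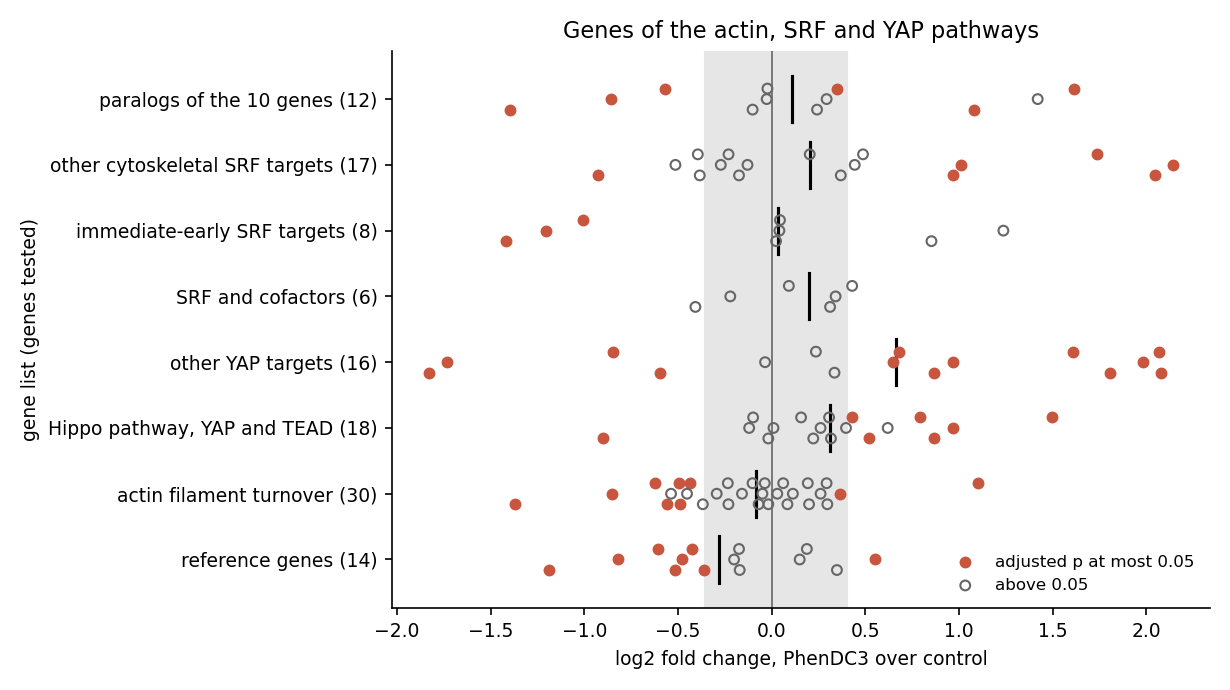
Log2 fold change of PhenDC3 over control of each tested gene of 8 lists; filled points have an adjusted p of at most 0.05 (edgeR), vertical bars are list medians, and the grey band holds the middle 50% of all genes tested. Further YAP targets have the highest median (0.66) and reference genes the lowest (−0.28).

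Of the 18 genes of the Hippo pathway, YAP and TEAD, 6 rose and 1 fell, with a median of 0.31. The TEAD genes moved apart. Tead1 measured 91.3, 104 and 131 CPM in control and 263, 272 and 387 CPM in PhenDC3, a 2.83-fold rise (adjusted p = 0.00054), whereas Tead2 measured 94.3, 126 and 121 CPM in control and 63.4, 63.0 and 56.4 CPM in PhenDC3 (−0.90 ± 0.13, adjusted p = 0.0012). Tead3 (0.31 ± 0.23, adjusted p = 0.32) and Tead4 (0.40 ± 0.34, adjusted p = 0.38) did not pass the threshold. Control replicate 3 was the highest Tead4 library, and without it the gene was past the threshold (0.94, adjusted p = 0.0096), as it was without replicate 3 of both conditions (0.80, adjusted p = 0.015). Wwtr1, which encodes TAZ, rose (0.52 ± 0.10, adjusted p = 0.005). Yap1 had values of 169 to 197 CPM in control and 221 to 226 CPM in PhenDC3 (0.26 ± 0.11, adjusted p = 0.085), and scaling by library size alone placed it past the threshold (0.42, adjusted p = 0.01). Of the upstream inhibitors, the kinase gene Lats2, also a YAP target, rose (0.87 ± 0.21, adjusted p = 0.013), a call lost without PhenDC3 replicate 1 (adjusted p = 0.053), and so did Wwc2, a KIBRA-family scaffold (0.79 ± 0.18, adjusted p = 0.0081).

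On the SRF side, none of the 6 tested genes of SRF and its cofactors passed the threshold in either direction in the edgeR test, nor in DESeq2 or limma voom; at an unadjusted p under 0.05, 2 were higher and 1 lower. Srf measured 43.9, 47.8 and 61.7 CPM in control and 38.0, 32.0 and 45.6 CPM in PhenDC3 (−0.41 ± 0.17, adjusted p = 0.089). Mkl1 (−0.22 ± 0.20, adjusted p = 0.41) overlapped, and Mkl2 (0.34 ± 0.13, adjusted p = 0.064) was higher in each PhenDC3 library than in any control library. Mkl2 passed the threshold when scaled by library size alone (0.49, adjusted p = 0.018) and without control replicate 3 (0.40, adjusted p = 0.048).

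Of 17 other cytoskeletal SRF targets tested, 5 rose and 1 fell, with a median of 0.20. Cald1, caldesmon, went from 27.2 to 36.7 CPM in control to 117 to 166 CPM in PhenDC3 (2.14 ± 0.17, adjusted p = 8.3e-05). Fhl2, a LIM-domain cofactor (2.04 ± 0.43, adjusted p = 0.006), and Myh9, the heavy chain of non-muscle myosin IIA (0.97 ± 0.17, adjusted p = 0.0023), rose, and the latter went from 342 to 502 CPM to 707 to 867 CPM. Fhl2 was scarce, at 0.543 to 0.908 CPM in control and 1.91 to 4.68 CPM in PhenDC3. Lmod1, a leiomodin below 1 CPM on average and named after its value was seen, rose (1.74 ± 0.36, adjusted p = 0.0061). Filip1l rose (1.01 ± 0.33, adjusted p = 0.04) but lost its call in DESeq2 (adjusted p = 0.065) and without control replicate 2, control replicate 3 or any single PhenDC3 replicate (adjusted p = 0.081 to 0.11). Pdlim7, a PDZ and LIM protein of actin bundles, fell (−0.93 ± 0.19, adjusted p = 0.0049).

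Of 8 immediate-early SRF targets tested, 0 rose and 3 fell by the edgeR test, DESeq2 and limma voom alike, and at an unadjusted p under 0.05 the counts were also 0 and 3. Egr1 measured 72.9, 62.1 and 65.8 CPM in control and 32.8, 11.5 and 30.7 CPM in PhenDC3 (−1.42 ± 0.32, adjusted p = 0.0085). Ier2 (−1.20 ± 0.15, adjusted p = 0.00045) and Junb (−1.01 ± 0.25, adjusted p = 0.013) fell too. The median of the 8 was 0.03, since the other 5 had higher mean levels in PhenDC3 without passing the threshold. Egr1, Ier2 and Junb encode short-lived regulators of transcription that cells make within minutes of a stimulus.

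Of 12 paralogs of the followed genes tested, 3 were higher and 3 lower, beside 18% higher and 18.7% lower among all genes, with a median of 0.11. Tagln3, the neuronal relative of Tagln, rose (1.08 ± 0.22, adjusted p = 0.0054), and Myl12b, a relative of Myl9, rose slightly (0.35 ± 0.11, adjusted p = 0.038) but not without control replicate 1, control replicate 3 or any single PhenDC3 replicate (adjusted p = 0.07 to 0.11). Acta1, skeletal muscle actin, was counted at 0.507, 0.821 and 1.51 CPM in control and 1.98, 1.92 and 4.72 CPM in PhenDC3 (1.62 ± 0.48, adjusted p = 0.028), a call lost without control replicate 1, control replicate 2 or PhenDC3 replicate 3 (adjusted p = 0.062 to 0.11). Cnn1, the smooth muscle relative of Cnn2 (−1.40 ± 0.29, adjusted p = 0.0064), Myl7, an atrial light chain (−0.86 ± 0.21, adjusted p = 0.012), and Tpm2 (−0.57 ± 0.13, adjusted p = 0.0081) fell. Cnn1 was scarce, at 2.16 to 2.74 CPM in control and 0.669 to 1.27 CPM in PhenDC3. The call of Myl7 was lost without replicate 3 of both conditions (−0.72, adjusted p = 0.050). Acta2, smooth muscle actin, showed the pattern of Tagln, with 0.434, 0.638 and 4.89 CPM in control and 3.09, 2.55 and 10.1 CPM in PhenDC3 (1.42 ± 0.86, adjusted p = 0.23). Without control replicate 3 its log2 fold change was 3.30 (adjusted p = 0.0082), and without replicate 3 of both conditions 2.41 (adjusted p = 0.0011).

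Of 30 genes of actin filament turnover tested, 7 fell and 2 rose, beside 18.7% lower and 18% higher among all genes, with a median of −0.09; Diaph1 and Diaph3 of the list were not analysed here. Tmsb4x, thymosin β4, which binds actin monomers, measured 313, 313 and 309 CPM in control and 103, 111 and 148 CPM in PhenDC3 (−1.37 ± 0.15, adjusted p = 0.00024), and Tmsb10, thymosin β10, 757, 882 and 1014 CPM against 478, 490 and 500 CPM (−0.85 ± 0.13, adjusted p = 0.0012). Ezr, ezrin, which ties filaments to the membrane (−0.62 ± 0.11, adjusted p = 0.0024), and Dstn, destrin, which severs filaments (−0.56 ± 0.10, adjusted p = 0.0032), fell as well. Gsn, the severing protein gelsolin, rose (1.10 ± 0.21, adjusted p = 0.0043). Arpc2, of the Arp2/3 complex, rose slightly (0.37 ± 0.10, adjusted p = 0.022) but not without control replicate 2 or any single PhenDC3 replicate (adjusted p = 0.057 to 0.094).

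Markers of other cells that could contribute actin and YAP target transcripts were measured in the same libraries. The 10 fibroblast and smooth muscle markers summed to 23.9 to 28.2 CPM in control and 22.5 to 31.8 CPM in PhenDC3; 7 passed the filter, 0 rose (also in DESeq2 and limma voom, with 1 at an unadjusted p under 0.05) and 1, Thy1, fell (−1.31 ± 0.22, adjusted p = 0.0023). Of the 7 tested, 5 had a log2 fold change above 0, and the median was 0.39, beside 0.01 for all genes. Des, named after its value was seen, made up much of the sum, with a mean of 15 CPM in control and 12.4 CPM in PhenDC3. Without control replicate 3, 2 of the 7 rose, and without replicate 3 of both conditions 1 rose. Lum was at 0 in all libraries. Extraembryonic endoderm markers summed to 459 to 556 CPM in control and 1023 to 1387 CPM in PhenDC3. Col4a1 and Lama1 made up most of these sums, with means of 219.3 and 222.4 CPM in control and 690.5 and 442.5 CPM in PhenDC3. Of the 8 tested 6 rose, among them Col4a1 (1.66 ± 0.17, adjusted p = 0.00024), Foxa2 (1.44 ± 0.25, adjusted p = 0.0027) and Gata4 (1.01 ± 0.22, adjusted p = 0.0079). Over all genes 18% rose. Sox7 (0.59 ± 0.32, adjusted p = 0.18) and Dab2 (0.21 ± 0.37, adjusted p = 0.7), named after their values were seen, did not pass the threshold. Afp and Ttr did not pass the filter on low counts. Trophoblast markers summed to 86.5 to 118 CPM in control and 185 to 245 CPM in PhenDC3. Of the 9 tested 5 rose (18% over all genes), among them Gata3 (3.31 ± 0.36, adjusted p = 0.00027) and the keratins Krt8 (1.23 ± 0.16, adjusted p = 0.00071) and Krt18 (1.27 ± 0.22, adjusted p = 0.0024). Gata3 was scarce, at 0.398, 0.957 and 0.303 CPM in control and 5.06, 5.98 and 5.23 CPM in PhenDC3. Tfap2c, named after its value was seen, rose (0.99 ± 0.17, adjusted p = 0.0021), and Krt7 rose (1.36 ± 0.41, adjusted p = 0.028) but not without control replicate 1, control replicate 3, PhenDC3 replicate 2 or PhenDC3 replicate 3 (adjusted p = 0.052 to 0.11). Of the 9 tested, 6 had a log2 fold change above 0. Eomes (−0.47 ± 0.20, adjusted p = 0.091) and Ascl2 (−0.61 ± 0.29, adjusted p = 0.13), named after their values were seen, did not pass the threshold. Both were lower in each PhenDC3 library than in any control library. Cdx2, a defining factor of trophoblast, stayed below 0.5 CPM in each library, and Elf5 did not pass the filter on low counts. Of the 10 ES cell markers 4 rose, led by Nanog (1.22 ± 0.10, adjusted p = 1e-04), and 3 fell, led by Utf1 (−2.02 ± 0.21, adjusted p = 0.00023). The part of these cell states in the values of Ctgf, Cyr61 and Ankrd1 was not tested, and in bulk samples fewer cells of a type and less RNA per cell cannot be told apart.

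SNS-seq showed whether replication started next to these genes. The deposited lists hold 79377 to 144103 peaks on the chromosomes used here, each with its fold enrichment over an RNase-treated library of the same condition. The lists contain no counts, so the depth is unknown and peak heights are not compared between conditions. A peak overlapping the 2 kb on either side of a TSS was found at 7, 8 and 4 of the 10 genes in the control lists and at 7 and 5 in the PhenDC3 lists. Over tested genes with a TSS the shares were 67.4%, 64.8% and 39.3% in control and 64.6% and 46.2% in PhenDC3. Peaks in at least 2 control lists were present at 7 of 10 genes, beside 62.4% of tested genes, and peaks in both PhenDC3 lists at 4 of 10, beside 41.7%. None of the 10 had peaks in at least 2 control lists and in no PhenDC3 list, as 8.31% of tested genes had, and none had peaks in both PhenDC3 lists and in no control list, as 2.02% of tested genes had.

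Actg1 was the only one of the 10 with a peak in all 5 lists, as were 26% of tested genes. Its strongest peaks had fold enrichments of 9.98, 5.72 and 5.50 in control and 8.59 and 4.06 in PhenDC3, with summits 691 to 1941 bp downstream of the TSS. Actb had 4, 3 and 2 peaks in the control lists and 3 in PhenDC3 list 1. The strongest of each list (14.9, 5.65 and 4.89 in control and 9.62 in PhenDC3) had its summit 1808 to 1842 bp downstream, and PhenDC3 list 2 had no peak within 2 kb. The strongest control 1 peak of Actb, at chr5:142903749-142906194 (mm10), lies within the gene, which spans chr5:142903115-142907976 on the minus strand. At Tagln2 summits lay 306 and 1089 bp downstream in control list 1, 307 bp downstream in control list 2, 244, 488 and 1104 bp downstream in PhenDC3 list 1 and 527 and 1121 bp downstream in PhenDC3 list 2, and control list 3 had no peak within 2 kb. Cnn2 had peaks in every list but PhenDC3 list 2.

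Ankrd1 had none within 2 kb of its TSS in any list, as did 17.5% of tested genes, and Cyr61 had a single one, in control list 1 (fold enrichment 4.47). Ctgf had its strongest peaks 200 and 125 bp downstream in control lists 1 and 2 (11.6 and 4.42), others 207 and 591 bp downstream in PhenDC3 list 1 (5.09 and 5.55) and, in PhenDC3 list 2, only a peak that reached into the 2 kb window from a summit at −2120 bp (3.22). Tagln, Tpm1 and Myl9 had peaks in 1, 2 and 2 control lists and in 2, 1 and 1 PhenDC3 lists. The number of genes with a peak in both PhenDC3 lists depended on the window, with 2 of 10 within 500 bp and 9 of 10 within 5 kb, where the shares of tested genes were 25% and 54.8%.

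**Figure D5:**
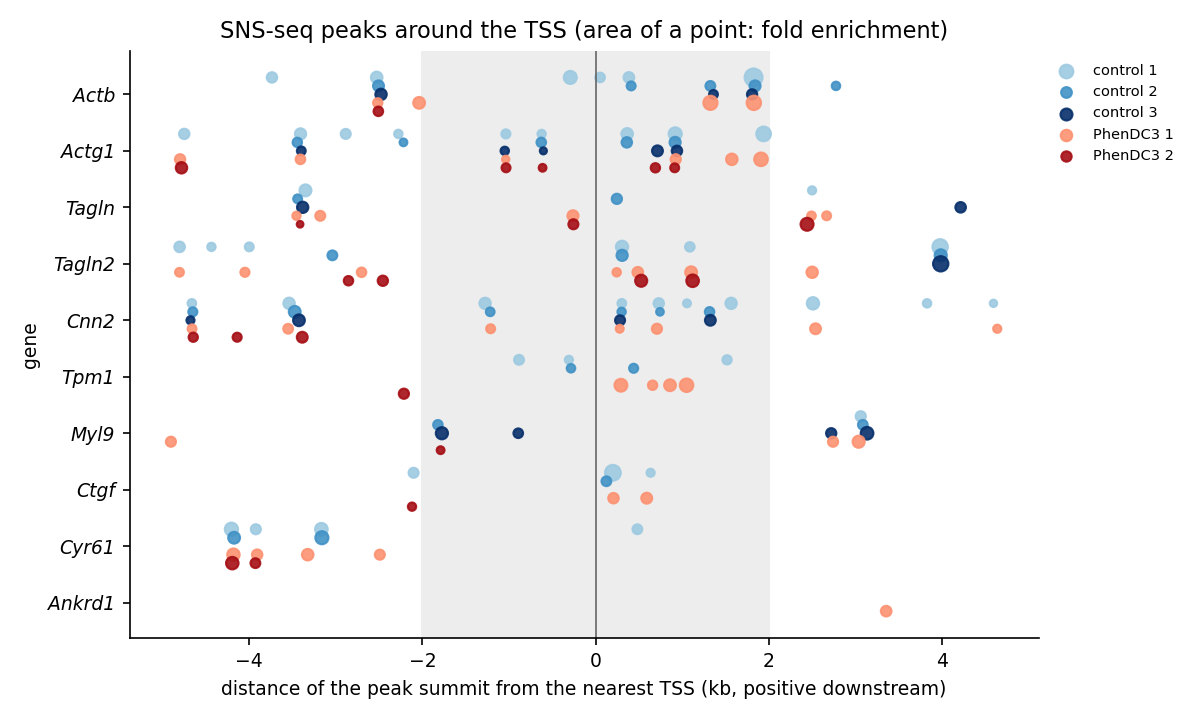
Summits of SNS-seq peaks within 5 kb of the nearest TSS of each gene, by distance in kb (positive downstream), one row of points per list and the area of a point in proportion to its fold enrichment; the grey band marks 2 kb on either side. In the band Actg1 has summits in every list, Actb, Tagln2 and Cnn2 have them in all lists but 1, Cyr61 has 1 summit and Ankrd1 has none.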

How the data were processed

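RNA-seq (3 control and 3 PhenDC3 samples) and SNS-seq (3 and 2) of CGR8 ES cells were re-analysed from deposited files. RNA-seq reads were mapped by the authors using TopHat2 (version 2.1.1) with Bowtie2 (2.2.9) and assigned to genes by HTSeq (0.6.1p1); the deposited counts are raw, from a stranded kit, and the annotation and strand setting are not given in the sources used here. For SNS-seq the authors mapped to mm10 with Bowtie2 (2.2.5), called peaks per sample with MACS2 (2.1.0) against 1 RNase-treated library per condition and kept those in SICER regions. The deposited lists give a ratio (fold enrichment), and −log10 of a p-value, used to rank peaks. A table of the authors' DESeq2 comparison (fold changes, p-values) and one of pseudo-counts were not used.

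Counts were fitted with edgeR (4.0.16, R 4.3.3; robust quasi-likelihood, relative log expression, filterByExpr) and Benjamini-Hochberg adjustment over all tested genes, at 0.05; the SE is the log2 fold change divided by the root of its F. The test was checked on simulated counts with 200 changed genes. Levels per length used exons of RefSeq genes (GRCm38.p6) matched by Entrez number, found for 99% of tested genes. Members and lists were chosen with earlier results of these data known. A further gene list is not reported here. Beside the 10 members the text names, per list and direction, up to 4 genes with the largest change among those past the threshold whose conditions did not overlap and whose CPM averaged 1 or more, and a fixed set of SRF, YAP, TEAD and reference genes. Alternatives were TMM, library size, no filter, DESeq2 (1.42.0), limma voom (3.58.1), a replicate block, each sample left out, other TSS distances, stronger peaks and another G4Hunter threshold. Leaving out replicate 3 of both conditions was added after seeing the data.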

Additional observations from a re-analysis of the deposited data

How the results depend on the processing

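No called gene of the lists that is named here and was checked changed direction under any alternative. Lmod1 and Tfap2c, named after their values were seen, were not checked in this way. Depth limits Myl9 and Ankrd1, at under 200 reads a library, and SNS-seq has no counts. The causes of the changes below were not tested. Same-numbered samples of the 2 conditions deviated together with r = 0.0904, 0.544 and 0.405 over 13972 genes, and each sample correlated best with its own number. The column names of the counts also number the control and PhenDC3 samples of a replicate in sequence. The first value fell just under the limit used here for treating the numbers as pairs. The main fit therefore has no pairs, and pairing was not excluded. With the replicate block, 3797 genes were called higher and 3692 lower, against 2518 and 2617 without it. The block gave 6 paralogs higher, 5 cytoskeletal SRF targets lower, 2 immediate-early genes higher, 3 of SRF and cofactors higher and 1 lower, 10 Hippo genes higher, 5 turnover genes higher and 11 lower, 2 reference genes higher and 2 fibroblast and smooth muscle markers higher. Srf (−0.41, adjusted p = 0.0036), Mkl2 (0.35, adjusted p = 0.015), Yap1 (0.26, adjusted p = 0.019), Tead4 (0.50, adjusted p = 0.02) and Acta2 (1.69, adjusted p = 0.00018) passed the threshold of the edgeR test with the block and not in the same fit without it. Library size alone gave 1688 of all genes lower, 8 cytoskeletal SRF targets higher, 2 of SRF and cofactors higher, 5 turnover genes higher, and 2 reference genes higher and 3 lower. Without a filter 1 of SRF and cofactors was higher. Without replicate 3 of both conditions, 2 cytoskeletal SRF targets were lower and 0 reference genes higher by edgeR, and the YAP targets gave 10 higher and 4 lower.

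Leaving out 1 sample at a time gave 1709 to 2689 genes higher and 1623 to 2727 lower. The ranges were 1 to 3 for paralogs higher, 1 to 2 for cytoskeletal SRF targets lower, 0 to 1 for SRF and cofactors higher, 3 to 7 for Hippo genes higher, 1 to 3 for turnover genes higher, and 1 to 2 higher and 4 to 6 lower for reference genes. For SNS-seq, 3 to 6 members had peaks in the 2 remaining controls and 5 to 7 in the remaining PhenDC3 list; 2 had them in both PhenDC3 lists within 500 bp, 9 within 5 kb and 2 among the stronger peaks. The G4Hunter threshold of 1.5 gave 7 promoters.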
